A study of Homo sapiens with 14 samples.

Results

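Cells that had grown with 4-thiouridine (s4U) for 24 h were compared with unlabeled cells after the RNA of both had been treated with acrylonitrile. The comparison covers the 12058 of 57820 annotated genes that held at least 20 fragments in each of the 4 acrylonitrile-treated libraries. These genes carried 97.7% and 97.8% of the gene fragments of the libraries with s4U and acrylonitrile, and 97.9% of the gene fragments of either library with acrylonitrile alone. Every gene has 2 readouts: its fragment total, the sum over all numbers of mismatches, and its marked share, the percentage of its fragments with at least 1 mismatch to the genome. The same gene in RNA that met acrylonitrile but no s4U gives its own background.

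All libraries were polyadenylated RNA of HEK293T, an immortalized human embryonic kidney line, sequenced in pairs and with strand information. The 4 groups of the experiment, 2 libraries each, were s4U with acrylonitrile (s4U-acrylonitrile-RNA), acrylonitrile alone (Con-acrylonitrile-RNA), s4U alone (s4U-RNA) and neither (Con-RNA). Cells received s4U at 50 µM according to the protocol, while the treatment label of the group with s4U and acrylonitrile gives 500 µM, so its dose is not settled here. Acrylonitrile acted on the isolated and fragmented RNA, never on the cells. Nothing states that replicates came from separate cultures, so every p-value rests on the spread of these libraries alone, which may be technical. Acrylonitrile alone is the unlabeled state of the same chemistry, so a difference between the groups holds both the base changes made by the reaction and whatever s4U did to the cells in 24 h. The libraries without acrylonitrile, set beside it at the end, hold the s4U treatment without the reaction.

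A cell takes up s4U and builds it into new RNA in place of uridine, while RNA made before labeling stays free of it. Acrylonitrile adds a cyanoethyl group to s4U, which reverse transcriptase then reads as cytidine, so a labeled fragment shows T-to-C mismatches. The deposited tables count mismatches without naming their type. A transcript that turns over fast is replaced by labeled copies, and a stable transcript keeps old, unmarked copies for longer. Thiolated uridine is also known to disturb ribosomal RNA processing and to provoke a nucleolar stress response at high doses.

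The libraries with s4U and acrylonitrile held 12843587 and 10841732 fragments, and those with acrylonitrile alone 7778685 and 6074118. Counts summed over annotated genes equaled 70.7% and 68.4% of these fragments with s4U and acrylonitrile and 70.9% and 68.6% with acrylonitrile alone. A fragment in overlapping genes can enter this sum more than once. Of 10 markers of HEK293T, 9 were found and all 9 were among the 12058 genes. Of 8 markers of the breast cancer line MCF-7, 4 were among them (XBP1, GATA3, GREB1 and FOXA1), while ESR1 held at most 8 fragments in any of the 4 libraries, PGR and TFF1 at most 2, and KRT19 none. Markers of hepatocytes summed to 22.6 and 44.2 CPM (counts scaled to a common library total, here all gene fragments) with s4U and acrylonitrile, and to 67.2 and 174 with acrylonitrile alone. Other sets were lower with s4U too. HEK293T markers summed to 389 and 446 CPM with s4U and acrylonitrile, against 588 and 610 CPM with acrylonitrile alone. The sums were 180 and 206, against 295 and 334 CPM, for MCF-7, and 67.3 and 73.0, against 136 and 125 CPM, for fibroblasts. Leukocyte markers stayed between 1.20 and 3.78 CPM in these 4 libraries. Total counts of the genes had, between replicates, a Spearman correlation of 0.988 for s4U with acrylonitrile and 0.992 for acrylonitrile alone, across 12058 genes, which are not independent replicates.

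Labeling for 24 h marked most of the RNA. In genes, 77.3% and 76.6% of fragments carried at least 1 mismatch with s4U and acrylonitrile, against 7.49% and 7.81% with acrylonitrile alone. The means were 76.9% ± 0.492 and 7.65% ± 0.231 (SD, n = 2 each), and the 95% Wilson intervals of single libraries, which cover counting error only, were narrower than 0.1 percentage points. Both libraries with s4U lay far above both libraries without it, yet an exact two-sided permutation test of 2 against 2 libraries cannot give a p under 0.333, which is the value it gave. Fragments with at least 2 mismatches made up 65.3% and 62.6% with s4U and acrylonitrile, against 1.10% and 1.30% with acrylonitrile alone. Those with at least 3 made up 51.1% and 46.7%, against 0.39% and 0.55%. A marked fragment carried 3.76 and 3.42 mismatches on average with s4U and acrylonitrile, and 1.25 and 1.33 with acrylonitrile alone. The most mismatches in 1 gene fragment were 25 and 23 with s4U and acrylonitrile, and 15 and 17 with acrylonitrile alone.

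The background without s4U was thus mostly a single mismatch, while labeled fragments usually held several. For comparison, 13.0% and 10.1% of gene fragments were marked with s4U alone, and 7.61% and 7.35% with neither.

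**Figure D1:**
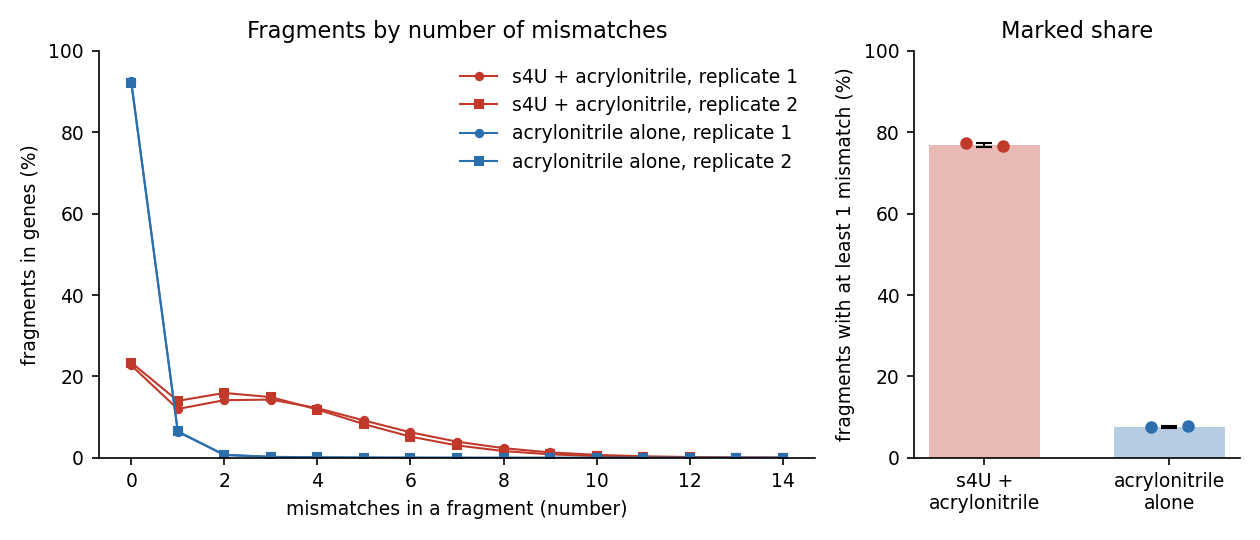
The left panel plots the percentage of fragments in genes (y axis) by the number of mismatches in the fragment (x axis, 0 to 14) for the 4 acrylonitrile-treated libraries, and the right panel the share with at least 1 mismatch, with bars for the mean, error bars for the SD and points for the 2 libraries of each group. The libraries with s4U and acrylonitrile stand at 77.3% and 76.6% and spread over many mismatches, and those with acrylonitrile alone at 7.49% and 7.81% and fall off after 1 mismatch.

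Nearly every gene gained mismatches. By edgeR's quasi-likelihood test on marked and unmarked counts, with Benjamini-Hochberg adjustment at 0.05, the marked share was higher with s4U and acrylonitrile in 12040 of the 12058 genes, or 99.9%, which is also the percentage of all tested genes since only these were tested. None passed lower, and 18 did not pass. In 12048 genes both libraries with s4U lay above both libraries without it. The median gene had a marked share of 91.3% with s4U and acrylonitrile (quartiles 84.9% and 94.1%) and of 7.41% with acrylonitrile alone (quartiles 6.16% and 8.92%). The median difference was 83.1 percentage points, and 5% of genes lay under 44.7 points. Replicates of a gene differed by 3.28 points on average with s4U and acrylonitrile and by 2.68 points with acrylonitrile alone.

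The shares of single genes leaned strongly to the high end. With s4U and acrylonitrile, 6996 genes (58.0%) had shares of 90% or more, 2949 lay from 80% to under 90%, 1601 from 50% to under 80%, 488 from 20% to under 50%, and 24 under 20%. Genes near the fragment minimum looked like the rest. The 146 genes whose lowest library held just 20 fragments had median shares of 91.7% with s4U and acrylonitrile and 7.16% with acrylonitrile alone, and the 129 genes just outside, with 19, had 91.6% and 7.98%.

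**Figure D2:**
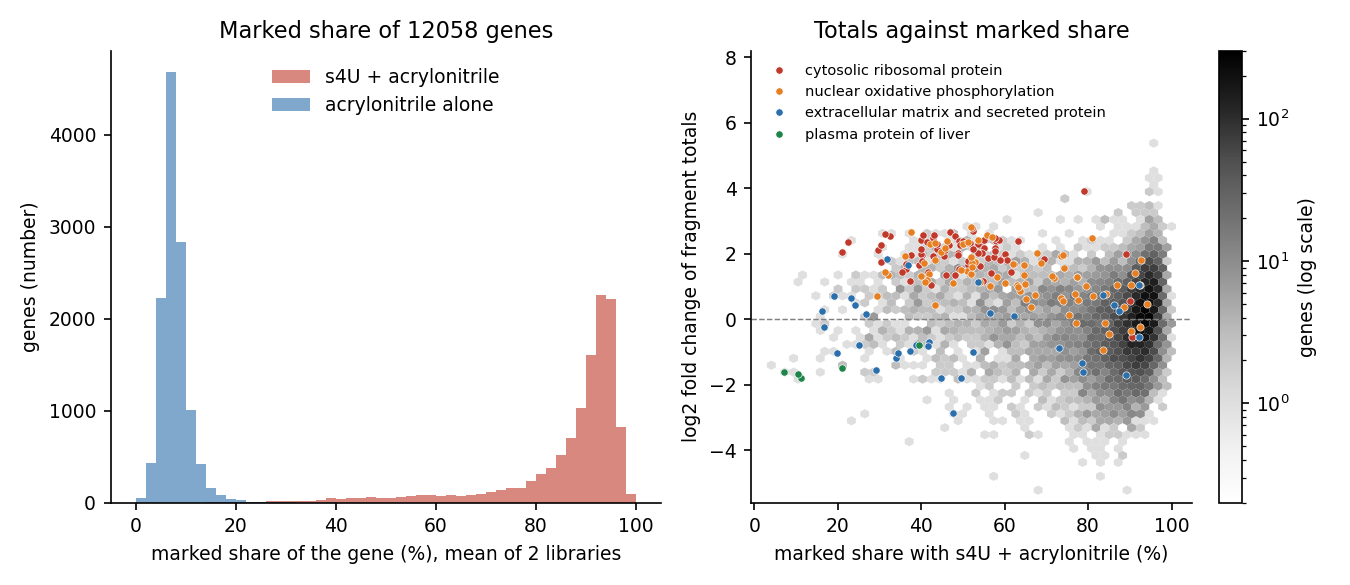
The left panel is a histogram of the marked share per gene (x axis, percent, mean of the 2 libraries of a group) over 12058 genes for s4U with acrylonitrile and acrylonitrile alone, and the right panel plots the log2 fold change of the fragment total, s4U with acrylonitrile over acrylonitrile alone, against the marked share with s4U and acrylonitrile, with grey cells for the number of genes and colored points for 4 gene lists. Medians lie at 91.3% and 7.41%, and ribosomal protein genes form a cloud of higher totals around a share of 49.6%.

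The genes that stayed least marked were of several kinds. ALB, the main protein of blood plasma, had shares of 9.63% and 11.1% with s4U and acrylonitrile and of 7.82% and 6.54% with acrylonitrile alone, and did not pass. APOB, the protein of low-density lipoprotein, had 6.06% and 8.11%, against 0% and 5.88%. SERPINA1, a protease inhibitor of plasma, had 13.6% and 8.57%, against 11.5% and 4.82%. These plasma proteins are products of liver, and 4 of the 5 in the list of plasma protein genes that were measured had shares that did not pass. Their totals were also low and uneven: ALB had 17.7 and 36.5 CPM, here on TMM-scaled library sizes, with s4U and acrylonitrile and 44.4 and 128 CPM with acrylonitrile alone. The hepatocyte marker sums given above include ALB and SERPINA1 and are mostly ALB, so they are no separate signal. AHSG, a hepatocyte marker outside the 12058 genes, held 11 and 23 fragments, against 23 and 34. The list's median log2 fold change of totals was −1.59 with 4 genes passing lower, but none passed without replicate 1 of s4U with acrylonitrile or without replicate 2 of acrylonitrile alone. Without replicate 2 of acrylonitrile alone ALB was at −0.69 (edgeR adjusted p = 0.184), and without replicate 1 of s4U with acrylonitrile its adjusted p was 0.119. All dishes held the same line, HEK293T, and where these fragments came from was not tested. In RNA from whole dishes, fewer cells, less RNA per cell and another source of the fragments cannot be told apart.

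HFM1, a helicase of meiosis, was marked in 21.8% and 18.7% of fragments with s4U and acrylonitrile and in 18.1% and 19.2% with acrylonitrile alone, so the groups overlapped. Among genes whose shares passed, ECEL1, an endopeptidase of neurons, reached only 14.96% and 15.03%, against 6.29% and 3.95%. PCSK1N, an inhibitor of prohormone convertase, reached 16.6% and 15.9%, against 5.59% and 6.55%. These genes showed the label, but most of their fragments stayed unmarked.

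At the other end, MFAP1, a spliceosome protein, had shares of 97.7% and 96.5% with s4U and acrylonitrile and of 3.33% and 2.13% with acrylonitrile alone. ZNF473, a zinc finger protein of histone mRNA processing, had 97.7% and 98.01%, against 4.94% and 2.50%. RNF219, a ubiquitin ligase, had 97.8% and 95.3%, against 3.61% and 2.08%. Virtually all fragments of these genes carried a mismatch after 24 h.

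A few genes were marked without any s4U. Shares with acrylonitrile alone exceeded 20% in 125 genes and 50% in 15. The processed pseudogene RP11-393N4.2 was marked in 98.7% and 98.4% of fragments with s4U and acrylonitrile and in 98.04% and 100% with acrylonitrile alone, and the noncoding LINC00910 in 96.0% and 94.8%, against 86.6% in both. POLR2L, a subunit of RNA polymerases, had 76.5% and 76.0%, against 67.1% and 64.4%. The shares of LINC00910 and POLR2L still passed, that of POLR2L not with limma (adjusted p = 0.126), while that of RP11-393N4.2 did not. In such genes a single mismatch separates labeled from unlabeled fragments poorly or not at all. Marked fragments of POLR2L carried 2.40 mismatches with s4U and acrylonitrile and 1.07 with acrylonitrile alone, those of RP11-393N4.2 3.80 and 4.05. Of the 15 genes, 7 are annotated as pseudogenes, which share sequence with other genes.

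Fragment totals moved in both directions. Of the 12058 genes, 4099 (34.0%) rose and 4102 (34.0%) fell with s4U and acrylonitrile relative to acrylonitrile alone, while 3857 did not pass (edgeR's quasi-likelihood test, Benjamini-Hochberg adjusted p under 0.05 over all 18914 genes tested). Over all tested genes 33.2% rose and 31.1% fell, 64.2% together, so the 12058 genes were close to the whole. Changes of at least 2-fold were passed by 1977 genes that rose and 2259 that fell. The middle 50% of genes lay between log2 fold changes of −0.73 and 0.71, and the extremes were −5.21 and 5.38. In 10328 genes (85.7%) both libraries with s4U lay on one side of both libraries without it, against 83.6% of all tested genes. The split between directions depends on the scaling: without TMM factors, with all mapped fragments as library size, the median gene shifted by −0.26 on the log2 scale and 2803 genes rose while 4895 fell, so that 36.4% of the genes that passed were higher in place of 50.0%. With a term for GC content 45.6% were higher.

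The largest rise was that of FGF18, a secreted fibroblast growth factor, with 1998 and 2150 fragments with s4U and acrylonitrile and 39 and 32 with acrylonitrile alone. This was 262 and 361 CPM, against 7.13 and 7.87 CPM, a log2 fold change of 5.38 ± 0.21 (SE, adjusted p = 2.6e-07). RASL11A, a small GTPase of the RAS family, had 209 and 283 CPM, against 6.76 and 14.03 CPM (log2 fold change 4.61). PYGM, the glycogen phosphorylase of muscle, had 92.2 and 116 CPM, against 4.57 and 5.41 CPM (4.39). All of these genes were barely expressed without s4U, and after it 93.5% to 97.4% of their fragments were marked.

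The same held for WNK4, a kinase that controls salt transport in kidney, with 159 and 176 CPM, against 10.1 and 12.1 CPM (log2 fold change 3.93). ALPK3, a kinase known from heart muscle, had 93.5 and 93.6 CPM, against 5.85 and 6.89 CPM (3.89). The overlapping genes PAK6, a p21-activated kinase, and RP11-133K1.2 share their reads and rose by 4.23 and 4.26, so they count as 1 signal. AOC2, an amine oxidase, and COLEC11, a collectin of innate immunity, rose by 3.88 and 3.57 on the log2 scale. The rise of 3.73 of BCYRN1, a short noncoding RNA of neurons, had an SE of 1.36 and did not pass when any of the 4 libraries was left out (adjusted p 0.0563 to 0.19).

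The largest fall was that of TIGD5, a gene derived from a transposase, with 26 and 24 fragments with s4U and acrylonitrile and 696 and 601 with acrylonitrile alone. This was 3.41 and 4.03 CPM, against 127 and 148 CPM, a log2 fold change of −5.21 ± 0.22 (SE, adjusted p = 2.6e-07). NOXA1, an activator of NADPH oxidase, had 3.67 and 4.37 CPM, against 142 and 152 CPM (log2 fold change −5.20). ATHL1, a glucosidase, had 11.0 and 10.3 CPM, against 274 and 291 CPM (−4.73). The few fragments left in these genes were largely marked, for example 92.3% and 87.5% of those of TIGD5.

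ADAMTS7, a secreted metalloprotease, had 4.32 and 4.71 CPM with s4U and acrylonitrile and 114 and 116 CPM with acrylonitrile alone (log2 fold change −4.67). KLF15, a transcription factor of the Krüppel-like family, had 4.19 and 5.38 CPM, against 98.1 and 109 CPM (−4.45). EMILIN3, a glycoprotein of the extracellular matrix, fell by 4.35 on the log2 scale. SORCS2, a sorting receptor of neurons, fell by 4.25, and SRRM3, a splicing factor, by 4.09. TERT, the catalytic subunit of telomerase, had 18.5 and 22.0 CPM, against 203 and 211 CPM (−3.36). NOTCH3, a receptor of the Notch pathway, had 97.5 and 93.3 CPM, against 509 and 536 CPM (−2.45). VEGFA, the vascular growth factor, had 83.8 and 100 CPM, against 205 and 201 CPM (−1.14). The rule for the largest falls required groups that do not overlap, a trait of 83.6% of all tested genes. TERT, NOTCH3 and VEGFA, named by the study and not by that rule, also had groups that did not overlap. At least 57.1% of the remaining fragments of each gene were marked with s4U and acrylonitrile. PAX2, a kidney transcription factor among the HEK293T markers and named after its values were seen, also fell, with 6.42 and 5.38 CPM, against 43.3 and 44.05 CPM (−2.88).

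The cytosolic ribosome gave the most uniform response. Of 82 genes for its proteins, 81 rose and none fell, with a median log2 fold change of 2.05 (quartiles 1.80 and 2.36), against 0.02 over the 12058 genes. Together they took 8.98% and 8.32% of gene fragments with s4U and acrylonitrile, and 2.97% and 2.93% with acrylonitrile alone. RPS2, a protein of the small subunit, had 8875 and 7486 CPM, against 2768 and 2900 CPM (log2 fold change 1.53 ± 0.17 SE). RPL8, of the large subunit, had 5580 and 5729 CPM, against 1621 and 1694 CPM (1.77 ± 0.26 SE). RPL13 rose by 1.175 and RPS15 by 1.62 on the log2 scale. The exception, RPL39L, a testis paralog of RPL39 named here after its value was seen, had 18.86 and 18.99 CPM, against 26.9 and 28.1 CPM, and did not pass. Many of these genes have processed pseudogenes, and only uniquely mapped pairs were counted.

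These genes were also among the least marked. Their median marked share was 49.6% with s4U and acrylonitrile and 7.39% with acrylonitrile alone, where the 12058 genes had 91.3% and 7.41%. RPS2 had 34.9% and 37.7%, against 7.57% and 7.48%, and RPL8 had 50.1% and 52.3%, against 6.95% and 7.39%. RPSA, of the small subunit and named after its value was seen, was lowest of all 82 with a mean of 21.1%. Even the unmarked fragments of ribosomal protein genes were more frequent: scaled as the totals were, their ratio had a median of 1.22 on the log2 scale, against −3.43 over the 12058 genes. On this relative scale, the higher totals were therefore not made of marked fragments alone. CPM are relative to the library, so whether unmarked RNA per cell rose was not tested. Paralogs, again named after the fact, were marked more fully, with 90.1% in RPL7L1, 89.0% in RPL26L1 and 90.5% in RPL39L.

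Messenger RNAs of ribosomal proteins start in a run of pyrimidines, known as the 5′ terminal oligopyrimidine motif, and share this feature beyond the 2 readouts. To show it, 30 bases from 10 before to 20 after the annotated start are given for 5 genes with the letters CTTTC, in capitals, and 2 genes without, each with its RefSeq position in GRCh38.p14.
RPLP1, chr15:69452808-69452837, plus strand: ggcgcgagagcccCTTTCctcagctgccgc
RPL28, chr19:55385922-55385951, plus strand: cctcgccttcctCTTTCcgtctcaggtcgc
RPL18, chr19:48619159-48619188, minus strand: agcccgttctctCTTTCcggacctggccga
RPL35, chr9:124861938-124861967, minus strand: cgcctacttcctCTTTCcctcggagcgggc
RPS3, chr11:75399508-75399537, plus strand: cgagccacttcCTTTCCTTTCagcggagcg
RPS15, chr19:1438386-1438415, plus strand: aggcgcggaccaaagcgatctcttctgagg
RPL3, chr22:39319604-39319633, minus strand: gccgaccggcctctaccggcgggatttgat
The letters CTTTC lay between 15 bases before and 25 after the start, on the sense strand, in 30 of 65 ribosomal protein genes with a RefSeq start (46.2%), in 5.20% of all 27305 starts and in 4.52% of the 8476 starts of the genes compared. On either strand the counts were 30 of 65 and 9.43% of all starts. Nuclear genes of oxidative phosphorylation held them in 4 of 48 (8.33%). The match is a description of these letters only, and starts can differ from the annotation.

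Of 78 nuclear genes of oxidative phosphorylation, which make the respiratory chain and ATP synthase, 69 rose and 1 fell, with a median log2 fold change of 1.33 and a median marked share of 63.0%. ATP5B, the beta subunit of ATP synthase, had 555 and 511 CPM with s4U and acrylonitrile, against 281 and 231 CPM with acrylonitrile alone (1.06). UQCRC1, of complex III, had 425 and 394 CPM, against 184 and 186 CPM (1.15), and was marked in only 39.5% and 42.4% of fragments. The 13 protein genes of the mitochondrial genome were not measured.

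The proteasome, which degrades ubiquitin-tagged proteins, had 34 of 36 subunit genes higher and none lower, with a median of 1.25 and a marked share of 86.7%. PSMD3 had 764 and 863 CPM, against 320 and 361 CPM (1.26). PSMD2, which overlaps another gene, was the least marked of the 36, at 40.5% and 37.8%, and rose by 0.92. Core spliceosome genes rose in 30 of 37 cases and fell in 1, with a median of 1.02. U2AF2, which binds the polypyrimidine tract, had 1960 and 2279 CPM, against 534 and 562 CPM (1.95). PRPF8, at the core of the spliceosome, had 861 and 838 CPM, against 384 and 334 CPM (1.24).

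Of 70 mitochondrial ribosomal protein genes 48 rose and 2 fell, with a median of 0.94, and of 52 ribosome biogenesis genes 38 rose and 2 fell, with a median of 0.91. NCL, nucleolin, had 1733 and 1823 CPM with s4U and acrylonitrile, against 776 and 710 CPM with acrylonitrile alone (log2 fold change 1.26). UBTF, a factor of RNA polymerase I, had 769 and 833 CPM, against 322 and 346 CPM (1.26). These 2 lists were marked about as fully as the 12058 genes, with medians of 90.3% and 93.1%. The noncoding hosts of small nucleolar RNAs followed, with 11 of 16 higher and none lower (median 1.25), among them GAS5, with 125 and 111 CPM, against 28.9 and 31.0 CPM (1.98). Chaperones of the heat shock response rose in 12 of 17 cases, with none lower. HSP90AB1 had 948 and 801 CPM, against 288 and 248 CPM (1.71), and STIP1, a co-chaperone of HSP90, had 629 and 649 CPM, against 219 and 190 CPM (1.64).

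**Figure D3:**
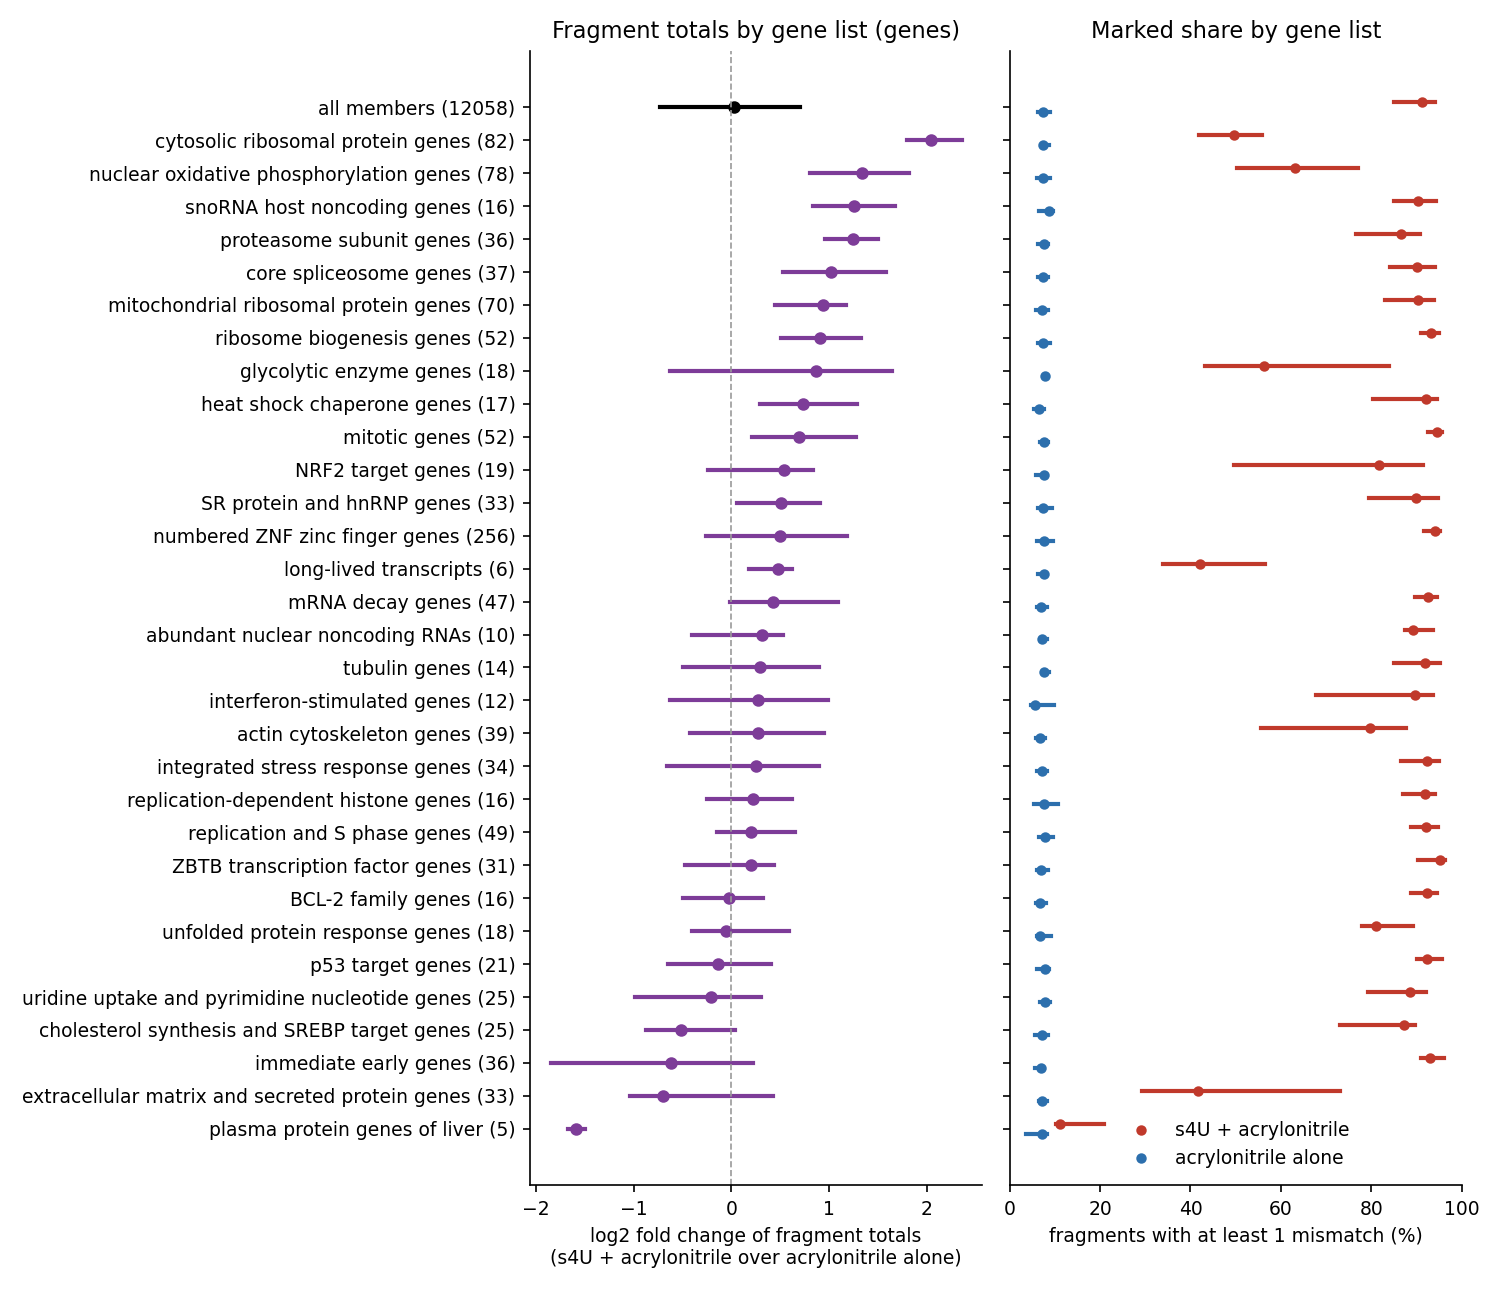
The left panel plots the log2 fold change of fragment totals, s4U with acrylonitrile over acrylonitrile alone, and the right panel the marked share in percent for both groups, for each gene list and for all 12058 genes. Dots are medians over genes and lines run between the quartiles, with the number of genes in brackets. Cytosolic ribosomal protein genes lie at a median of 2.05 and plasma protein genes at −1.59.

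Genes of mitosis rose more often than they fell, 31 against 2 of 52 (median 0.69, share 94.4%), with CDC20, an activator of the anaphase-promoting complex, at 275 and 313 CPM, against 95.6 and 108 CPM (1.53). Genes of replication and S phase moved less, with 20 higher and 7 lower of 49, but 13 higher without replicate 2 and 4 lower without replicate 1 of acrylonitrile alone, and 12 higher and 13 lower without TMM factors. Of the 256 numbered zinc finger genes 128 rose and 55 fell, with a median of 0.50 and the high marked share of 94.1%. ZNF503 had 2462 and 3353 CPM, against 761 and 842 CPM (1.86). Of 31 transcription factors of the ZBTB family 9 rose and 9 fell, and without TMM factors 6 rose and 11 fell, where 33.2% and 31.1% of all tested genes did with them.

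Immediate early genes, which are induced within minutes of a stimulus and make short-lived mRNAs, fell more often than they rose, 19 against 6 of 36, with a median of −0.62. MYC, a transcription factor of growth, had 176 and 206 CPM with s4U and acrylonitrile and 837 and 864 CPM with acrylonitrile alone (log2 fold change −2.15 ± 0.13 SE). After seeing the values, JUND (−2.87), JUNB (−2.84) and FOSB (−2.38) can be named as the lowest, all subunits of the AP-1 factor. MCL1, which keeps cells from apoptosis and turns over fast, rose instead, with 273 and 331 CPM, against 149 and 164 CPM (0.95). The list was marked to 93.1%, and 97.0% and 96.1% of MYC fragments were marked, against 6.64% and 6.92% with acrylonitrile alone.

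Genes of cholesterol synthesis and other targets of the SREBP factors fell in 14 of 25 cases and rose in 5 (median −0.52), though in 3 without replicate 1 of s4U with acrylonitrile or either library with acrylonitrile alone. SREBF2, the factor itself, had 309 and 323 CPM, against 549 and 539 CPM (−0.78). SCD, the stearoyl-CoA desaturase, went the other way with 1004 and 910 CPM, against 315 and 309 CPM (1.62), and overlaps another gene. FASN, the fatty acid synthase, fell by 0.69 on the log2 scale, and this did not pass when any 1 of the 4 libraries was left out (adjusted p 0.121 to 0.164) or with a GC term (0.78). Genes of uridine uptake and pyrimidine nucleotides fell in 11 of 25 cases and rose in 4. CAD, the enzyme that opens pyrimidine synthesis, had 124 and 123 CPM, against 373 and 357 CPM (−1.57), while NME1, a nucleoside diphosphate kinase that overlaps the NME1-NME2 locus, had 186 and 179 CPM, against 52.6 and 50.9 CPM (1.82).

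Extracellular matrix and secreted protein genes fell in 17 of 33 cases and rose in 9 (median −0.70), and were marked to a median of only 41.8%. AGRN, agrin of basement membranes, had 523 and 599 CPM, against 1236 and 1294 CPM (−1.17), with 34.8% and 33.1% of its fragments marked. P4HB, an enzyme of collagen folding, rose to 1015 and 1004 CPM, against 468 and 442 CPM (1.15). COL4A2, a collagen of basement membranes, had 687 and 715 CPM, against 612 and 636 CPM, which did not pass, and a share of 28.8% and 24.6%.

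Glycolysis split by enzyme, with 10 genes higher and 6 lower of 18, and was marked to 56.2%. GAPDH, which oxidizes glyceraldehyde phosphate, had 5449 and 5352 CPM, against 1442 and 1467 CPM (1.89), and a share of 45.3% and 47.3%, against 8.93% and 9.90%. ALDOA, the aldolase, had 3892 and 3789 CPM, against 1083 and 1069 CPM (1.84). The 6 that fell, named after their values were seen, were ENO2, HK2, PFKP, HK1, PFKL and PFKM, hexokinases and phosphofructokinases apart from the enolase, and lay between −1.36 and −0.62.

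Several stress lists lay near the 33.2% that rose and 31.1% that fell over all tested genes. Targets of NRF2 and the heat shock chaperones given above rose more often. Targets of p53 had 6 genes higher and 6 lower of 21, or 3 higher and 10 lower without TMM factors, the integrated stress response 14 and 12 of 34, and the unfolded protein response 7 and 5 of 18. AEN, an exonuclease induced by p53, had 605 and 675 CPM, against 136 and 138 CPM (2.22). ATF4, the transcription factor of the integrated stress response, had 1048 and 1084 CPM, against 464 and 463 CPM (1.20), while HYOU1, a chaperone of the endoplasmic reticulum, had 376 and 380 CPM, against 245 and 225 CPM (0.68). HSPA5, the main chaperone of the same compartment, had 193 and 208 CPM, against 208 and 194 CPM, and overlapped. Of 12 interferon-stimulated genes 5 rose and 4 fell, with ISG20, an exonuclease, at 54.0 and 65.2 CPM, against 5.85 and 6.40 CPM (3.28). These small counts moved with single libraries: 3 p53 targets rose without replicate 1 of acrylonitrile alone, 4 genes of the unfolded protein response rose without either library of that group, and 3 interferon-stimulated genes rose and 2 fell without its replicate 2. Targets of NRF2, the factor of the oxidative stress response, rose in 11 of 19 cases and fell in 5, but only 6 rose without TMM factors. FTL and FTH1, the ferritin chains, rose by 1.63 and 1.71 on the log2 scale.

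Nuclear noncoding RNAs also differed one by one. NEAT1, the scaffold of paraspeckles, fell to 25.2 and 31.4 CPM with s4U and acrylonitrile, against 240 and 227 CPM with acrylonitrile alone (−3.05). KCNQ1OT1, an imprinted antisense RNA, had 71.9 and 77.8 CPM, against 154 and 156 CPM (−1.05). MALAT1, of nuclear speckles, had 130 and 96.3 CPM, against 190 and 158 CPM (−0.62), and did not pass when any of the 4 libraries was left out (adjusted p 0.0684 to 0.378).

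The 16 measured BCL-2 family genes, regulators of apoptosis, had a median share of 92.3%, from 73.2% to 96.9%. Their totals rose in 4 and fell in 4, or in as few as 2 each when 1 library was left out (higher without replicate 2 of either group, lower without either library of s4U with acrylonitrile), with BAK1, a pore-forming killer protein, at 144 and 150 CPM, against 45.3 and 48.7 CPM (1.65). The study took 6 transcripts as long-lived from earlier work in human cells. They had a median share of 42.1%, from 26.1% to 62.2%. FLNA, the actin cross-linker filamin A, had 26.9% and 25.3%, against 5.76% and 6.07%, and PRDX5, a peroxiredoxin, 33.5% and 32.1%, against 7.23% and 9.90%. Of the 6, CRTAP and MSN rose, by 0.65 and 1.47 on the log2 scale, and MYH9 fell by 0.41, a call that was lost without any 1 of the 4 libraries (adjusted p 0.0607 to 0.113). So a low share went with unlike changes of the total.

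Across all 12058 genes the total and the marked share were only loosely linked. Genes that rose had a median share of 92.7%, genes that fell 89.5%, and those that did not pass 91.8%. By share, the 512 genes under 50% rose in 49.2% of cases and fell in 24.8%, those from 80% to under 90% rose in 20.4% and fell in 49.5%, and those of 90% and over rose in 38.2% and fell in 27.4%. Thus the largest excess of falls was in the middle of the range, not at either end. Scaled as the totals were, the unmarked fragments of the median gene fell by 3.43 on the log2 scale.

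Base composition moved with both readouts. The Spearman correlation over the 11823 genes (98.1%) with a transcript model, given without a test because genes share libraries, was −0.219 between the log2 fold change of totals and GC content, 0.182 with the uridine content and −0.206 with transcript length. In the quintile of genes with the least uridine, 25.9% rose and 48.5% fell, while in the quintile with the most, 37.1% rose and 21.9% fell. In the shortest quintile of transcripts the median log2 fold change was 0.43, and in the longest −0.23. For s4U alone relative to neither, the log2 fold change had correlations of −0.278 with GC content and 0.249 with uridine content. The marked share with s4U and acrylonitrile had a correlation of 0.169 with uridine content. Marked fragments carried a median of 3.47 mismatches in the quintile with the least uridine and 3.84 in the quintile with the most with s4U and acrylonitrile, against 1.25 and 1.29 with acrylonitrile alone. The highest median with s4U, 3.91, lay in the class just below the most, so the number did not climb over the whole range, and the background hardly moved.

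**Figure D4:**
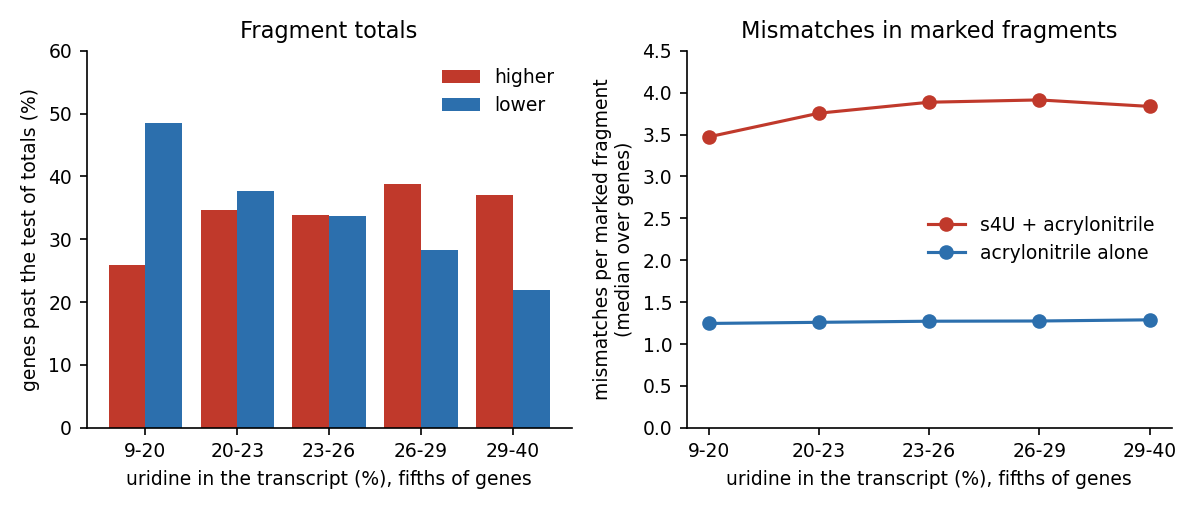
Genes were split into quintiles by the uridine percentage of the transcript (x axis). The left panel plots the percentage of genes that passed higher or lower in fragment totals with s4U and acrylonitrile relative to acrylonitrile alone, and the right panel the median over genes of mismatches per marked fragment in both groups. Falls make up 48.5% of the lowest quintile and 21.9% of the highest.

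The marking after 24 h was set beside that after 1 h of s4U in other libraries of the same cells without drug, which used 500 µM s4U. In 11867 genes with at least 20 fragments in both of those libraries, the median share was 19.8% after 1 h, and its rank correlation with the share after 24 h was 0.467, a description over genes. In the quintile of genes least marked at 1 h, with a median of 10.5%, the share after 24 h was 81.8%. In the quintile most marked, with a median of 40.1%, it was 93.5%. The quintiles were sorted by the 1 h share, which fixes its wide spread, so the spreads of both shares are not compared. Immediate early genes reached 52.1% after 1 h (33 genes) and zinc finger genes 33.1%, while ribosomal protein genes reached 9.83% and extracellular matrix genes 9.44%. Since doses and times differ, no test was made.

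The s4U effect on totals ranked genes similarly in RNA that never met acrylonitrile. Its sign was opposite in 1392 of the 12058 genes. With s4U alone relative to neither, 35.8% of all tested genes rose and 34.7% fell, and of the 12058 genes 4521 rose and 4288 fell. No library is shared between both comparisons, but the treatment labels give 50 µM s4U for s4U alone and 500 µM for s4U with acrylonitrile, so a difference in dose and the acrylonitrile cannot be told apart if both labels hold. In the same direction passed 3493 genes that rose and 3607 that fell in both, while 62 passed in opposite directions, and the Spearman correlation of the log2 fold changes was 0.916 across genes. FGF18 had a log2 fold change of 6.55 without acrylonitrile, TIGD5 of −4.94, MYC of −2.12 and RPL8 of 1.42.

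The difference between both s4U effects was tested in the same edgeR fit. It passed in 243 of 18914 genes (1.28%, and 1.64% in either direction) in which the effect was higher with acrylonitrile and in 67 (0.354%) in which it was lower. Of the 12058 genes 158 were higher and 66 lower. These counts rest on the libraries used: leaving out a single library gave 13 (without replicate 2 of acrylonitrile alone) to 2031 (without replicate 2 of s4U alone) higher and 1 to 1608 lower genes, so they name candidates at most. The 158 genes were weakly marked, with a median share of 44.8%, against 91.3% over the 12058 genes, and 89 of them (56.3%) lay under 50%, where 4.25% of the 12058 genes lay. None of the 66 genes lay under 50%. Without adjustment, edgeR's p for the difference was under 0.05 in 2297 of the 12058 genes. The small number of adjusted calls therefore does not show that the effects were equal.

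Over share classes the median difference was 0.70 on the log2 scale in the 512 genes under 50%, 0.26 from 50% to under 80%, 0.02 from 80% to under 90% and −0.08 at 90% and over. By these medians, the weakly marked genes gained more, or lost less, in total with acrylonitrile than without it. The share and the difference both use the libraries with s4U and acrylonitrile, so they are not independent. Unmarked fragments in these libraries lower the share and raise the total, so sorting by share can itself make part of this link. The size of that part was not tested. The same limit holds for the low median share of the genes whose difference passed higher. HSP90AA1, the inducible HSP90, had an effect of 1.89 with acrylonitrile and 0.82 without. ENO1, the enolase, had 1.82 and 0.75, PKM, the pyruvate kinase, 1.53 and 0.41, and MSN, moesin of the cell cortex, 1.47 and 0.41. COL4A2 had 0.17 and −0.91. Of the lists, 9 of 82 ribosomal protein genes, 8 of 33 extracellular matrix genes and 5 of 18 glycolytic genes passed higher, and none of these lists passed lower. The part of the mismatches themselves in this difference was not tested.

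Another 15 of the 158 genes were pseudogenes, with a median share of 86.2% with s4U and acrylonitrile and 31.4% with acrylonitrile alone, against 93.5% and 8.88% over all 251 pseudogenes measured. Of these and of the genes below, named after their values were seen, EEF1A1P5, a processed copy of an elongation factor gene, had 306 and 228 CPM with s4U and acrylonitrile and 36.6 and 29.8 CPM with acrylonitrile alone, a log2 fold change of 3.00, against 0.32 without acrylonitrile. SLC25A6, an ADP/ATP carrier in the pseudoautosomal region that X and Y share, had 135 and 126 CPM, against 19.6 and 16.0 CPM (2.87), and 0.34 without acrylonitrile. Of 6 measured genes of the region 3 passed, the others being DHRSX and AKAP17A with differences of 2.93 and 2.30. PPP2R3B (1.86, adjusted p = 0.067), PLCXD1 (0.99, adjusted p = 0.29) and ASMTL (0.81, adjusted p = 0.33) did not pass in the edgeR fit. Only unique alignments were kept, and these genes have a second copy of their sequence, so their values are uncertain.

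**Figure D5:**
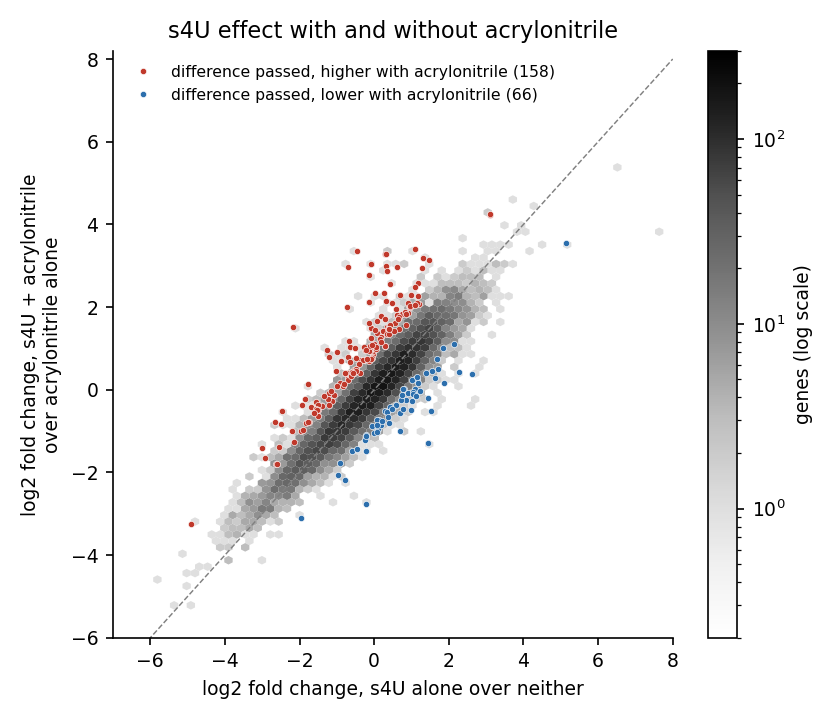
Each gene's log2 fold change of totals for s4U with acrylonitrile over acrylonitrile alone (y axis) is plotted against that for s4U alone over neither (x axis), with grey cells for the number of genes, a dashed line of equal effects and colored points for genes whose difference passed. The cells follow the line (Spearman correlation 0.916), with 158 genes above and 66 below it.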

How the data were processed

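Mismatch tables of the 4 acrylonitrile-treated libraries, and of the 4 libraries without acrylonitrile for the difference of effects, were used. The authors deposited counts of fragments per gene by number of mismatches, packed into text, after trimming (cutadapt 1.18), keeping 1 read of each identical sequence, removing ribosomal RNA and mapping to GRCh37 (HISAT2 2.1.0) as unique proper pairs with strand. The authors ignored mismatches at known polymorphisms and at bases with quality below 41, and polymorphisms newly found in at least 5 reads and 5% in controls. Which tool counted fragments per gene is not stated in the labels or methods. Gene names (GENCODE v19) came from the FPM tables of the series, whose counts the authors deposited for the 1 h libraries. Coordinates printed here are those of RefSeq in GRCh38.p14.

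Fragments were summed over mismatch numbers and tested by edgeR 4.0.16 (quasi-likelihood, TMM, filterByExpr, R 4.3.3) in 1 fit of all 8 libraries. CPM use TMM-scaled library sizes. Marked shares were tested by edgeR on marked and unmarked counts with a term per library, over genes with at least 20 fragments in each of the 4 libraries. Both tests were checked on simulated counts in which few genes changed, while most genes passed here. That check therefore does not cover scaling or error control when most genes change. Lists carry counts and medians only. Members, lists and tests were chosen with earlier results of these data known.

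Named genes needed a mean of 100 fragments: the 12 largest rises and 12 largest falls, the 10 smallest and 10 largest share differences, up to 10 with shares that did not pass, up to 4 members of a list by fragment number, and genes the study names. Others are said to be chosen after their values were seen. Some genes that the rule names are not reported here. Alternatives used DESeq2 1.42.0, limma 3.58.1, other scalings, filters and mismatch minimums, a GC term, the replicate block and leaving out each library. Tables and plots were made in Python 3.11.15 with pandas 2.3.3, Matplotlib 3.10.9, NumPy 2.4.6, statsmodels 0.14.6 and SciPy 1.17.1. Counting error only is covered by intervals and depth differs between libraries.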

Additional observations from a re-analysis of the deposited data

Results flagged for a closer look

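The s4U effect on fragment totals differed between RNA with and without acrylonitrile in 310 genes by the test of the difference itself, 243 higher and 67 lower with acrylonitrile. Among the genes named in the text, the effect with acrylonitrile minus that without, on the log2 scale, was 1.163 in RP11-133K1.2 and 1.115 in the overlapping PAK6, 1.622 in the pseudogene RP11-393N4.2, 0.8322 in HYOU1, 1.071 in HSP90AA1, 0.9512 in UQCRC1, 1.071 in ENO1, 1.125 in PKM, 1.066 in SCD, 1.083 in COL4A2 and 1.061 in MSN. Each of these calls was lost under at least 5 of the alternatives.

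Fragments outside annotated genes, used in no comparison per gene, were estimated as library counts minus counts summed over genes, by mismatch number. By this estimate 43.2% and 42.8% were marked with s4U and acrylonitrile, against 28.9% and 28.7% with acrylonitrile alone. The latter background was higher than the 7.49% and 7.81% of gene fragments. Fragments counted in more than 1 gene are subtracted more than once, so these shares are uncertain. Replicate 1 of acrylonitrile alone had 13 gene fragments with 13 mismatches, but 12 in the library.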

How the results depend on the processing

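Totals kept within 1.5 times of their counts under each scaling, filter, tool and left-out library, except that 4034 genes rose when the filter of 20 fragments in each of the 4 libraries was used, which tests fewer genes. The number that rose was 5255 to 6006 and that fell 4555 to 4943 with 1 library left out. The numbers of the replicates do not pair the libraries (correlation of same-numbered deviations 0.045), and with a replicate block 6333 rose and 5865 fell, 12040 shares passed and 18 did not, and the difference of effects passed in 316 and 82 genes. With 10 fragments per library 51 shares did not pass, and with 100 fragments 6863 passed and 2 did not. The marked share of libraries was 63.94% with s4U and acrylonitrile and 1.2% with acrylonitrile alone for at least 2 mismatches, 48.89% and 0.4724% for at least 3, and 66.6% and 14.05% over all fragments. The difference of effects was least stable. Genes higher and lower were 713 and 44 with upper quartile scaling, 155 and 20 without TMM, 1152 and 290 without a filter, and 372 and 106 with DESeq2, and lower were 191 with a GC term and 121 with block and GC term. Among the 12058 genes these were 559 and 42, 82 and 19, 825 and 232, 257 higher with DESeq2, 188 and 118 lower. Leaving out 1 library gave 13 to 2031 higher and 1 to 1608 lower, and 6 to 1680 and 1 to 1434 among the 12058 genes. The causes were not tested. No named gene that passed and no list median that was followed changed sign. The other genes were not checked for this. Of the named genes, 32 lost their call on totals under at least 1 alternative. Depth limits genes near 20 fragments.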
